A study of Mus musculus with 24 samples.

Results

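The genes of the basement membrane were followed across mouse lung tumour cell lines and normal alveolar cells. Every probe set whose gene symbol in the array's platform annotation was Nid1, Nid2, Lama5, Lamb1, Lamb2, Lamc1, Col4a1, Col4a2 or Hspg2 was taken. All 9 genes were on the array, among 8251 with a symbol of their own, by 12 of its 12422 probe sets. Testing was kept to probe sets brighter than the array median on 2 or more arrays, a condition that 10 of the 12 and 7670 in all met. Each gene kept at least 1 tested probe set and is given by its brightest.

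The series holds 24 Affymetrix arrays. Of these, 22 measured 11 lines (A2B1, A2C12, B3, betaD5, betaD10, cRAF_cMYC, gammaA3, gammaA7, gammaB8, gammaD1 and gammaD12) grown from lung tumours of 8-month-old mice that carried both a c-Myc and a c-Raf transgene. The lines were kept in DMEM with 10% fetal calf serum for up to 50 passages. The control was 2 arrays of alveolar epithelial type II cells from healthy mice without the transgenes, whose age the labels do not give; the titles call the first AT and the other AT2, while the source label names type II cells for both. They were taken from the lung by perfusion, lavage, trypsin digestion and a Percoll gradient. The labels name neither the strain nor the promoter that drives either transgene, nor do they say whether a line is a clone. The lines had been passaged in serum and no culture is named for the control cells, so transgenes, tumour and growth in culture cannot be told apart as sources of what differs.

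Several arrays stood apart. The 2 control arrays were 2-fold or more apart for 12.4% of tested probe sets. Sftpc, the surfactant protein that marks type II cells, read 6.68 to 43.8 in the lines, against 787 on control 1 and 11196 on control 2. Lyz2, a lysozyme gene listed here with the macrophage markers, had 1.28 to 15.6 in the lines, against 6099 and 5582 in the controls. The lines carried little of the epithelial keratin Krt18, at 7.30 to 27.8, against 2048 and 824 in the controls. The sum of 10 epithelial markers was 314 to 3281 in the lines, against 13027 and 8535. Among them Krt19 had 111 to 3003 in the lines, against 3570 and 2230. Of the 9 epithelial markers that were tested, 6 entered the test only through the controls, so their count has no weight. Actin, whose 3′ over 5′ probe set signal is a measure of RNA integrity, gave ratios of 1.03 to 1.32 on tumour arrays, against 1.47 and 1.64 on control arrays. Of the 17 arrays in lines with more than 1 array, 8 resembled an array of another line most, in correlation of levels centred on each probe set's mean. Replicate 1 of cRAF_cMYC was nearest to replicate 1 of gammaA7 (r = 0.730), and its replicate 2 was nearest to replicate 2 of gammaA7 (r = 0.832). The main counts and correlations that use the numbered arrays of these 2 lines are given with and without them. The titles name line 9 gammaB8 and another of its labels gammaA8; the title is used here.

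A basement membrane is a thin sheet of extracellular matrix under epithelia and around vessels, muscle and nerve. Laminins, trimers of an alpha, a beta and a gamma chain, assemble on the cell surface through receptors such as integrins and dystroglycan, and type IV collagen forms a second network that is crosslinked and gives the sheet its strength. Nidogens bind the laminin gamma 1 chain and type IV collagen, and perlecan is a large heparan sulphate proteoglycan tied into both networks. In the alveolus the basement membranes of epithelium and capillary are fused, so gas crosses a shared sheet.

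Col4a1 and Col4a2 encode the 2 chains that form the most widespread collagen IV trimer, and the genes lie head to head on mouse chromosome 8. Their promoter windows are shown because the pair varied together across the lines, as described further on. RefSeq on build GRCm38.p6 gives windows of 250 bases before and 50 bases from the start of transcription, printed 5′ to 3′ on each gene's own strand. Col4a1 is at chr8:11312777-11313076 on the minus strand and Col4a2 at chr8:11312555-11312854 on the plus strand. Capitals mark the 78 bases that lie in both windows, which are reverse complements of each other.
Col4a1: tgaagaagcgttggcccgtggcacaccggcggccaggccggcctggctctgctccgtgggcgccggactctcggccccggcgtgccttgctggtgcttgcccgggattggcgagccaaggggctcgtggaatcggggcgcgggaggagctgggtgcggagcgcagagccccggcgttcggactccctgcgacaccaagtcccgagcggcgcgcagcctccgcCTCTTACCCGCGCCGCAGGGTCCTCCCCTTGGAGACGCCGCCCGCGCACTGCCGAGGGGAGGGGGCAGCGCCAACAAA
Col4a2: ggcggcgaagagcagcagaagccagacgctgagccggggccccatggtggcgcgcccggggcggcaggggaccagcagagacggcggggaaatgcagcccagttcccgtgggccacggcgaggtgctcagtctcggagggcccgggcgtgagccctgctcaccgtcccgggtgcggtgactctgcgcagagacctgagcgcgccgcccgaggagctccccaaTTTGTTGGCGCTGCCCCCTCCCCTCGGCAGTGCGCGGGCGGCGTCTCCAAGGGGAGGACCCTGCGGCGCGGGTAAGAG

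The first transcribed bases of the pair lie 21 bases apart, at 11312826 for Col4a1 and 11312805 for Col4a2. The annotated transcripts therefore overlap at their 5′ ends. The shared stretch is 73.1% G or C. Windows were at hand for 7 of the 9 genes, the exceptions being Nid2 and Lamc1. On either strand, the letters CCAAT occurred in 4 of the 7 windows (Nid1, Lamb1, Col4a1 and Col4a2) and in 37.4% of all 32851 windows. GGGCGG occurred in 6 of 7 (all but Lamb2) and in 35.7% of all windows. TATAAA occurred in 0 of 7, against 13.6% of all windows. These are matches of letters in a fixed window and not shown binding sites.

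The question asked first was how the lines as a group compared with control. Of the 9 genes, 3 were higher in the lines, none was lower and 6 were not called. A gene was called where limma's Benjamini-Hochberg adjusted p over all tested probe sets was under 0.05 and the difference reached 2-fold on the scale log2(signal + 32), between 11 line means and 2 control arrays. By the same rule 16.5% of all tested probe sets were higher and 21.4% lower, so 3 of 9, or 33.3%, stands beside 16.5%, and with 9 genes no test was made of that gap. The 3 were Nid1, Hspg2 and Col4a1. The median difference of the 9 was 0.87 on the log2 scale, beside -0.05 over all tested probe sets. Nid1 and Nid2 were above the array median on tumour arrays alone, 22 and 17 of them, and with no filter the same 3 genes were called. Without the numbered arrays of cRAF_cMYC and gammaA7 the count was again 3. Without control 2, which leaves 1 control array, the log2 differences were 1.90 for Nid1, 0.95 for Hspg2 and 0.71 for Col4a1.

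**Figure D1:**
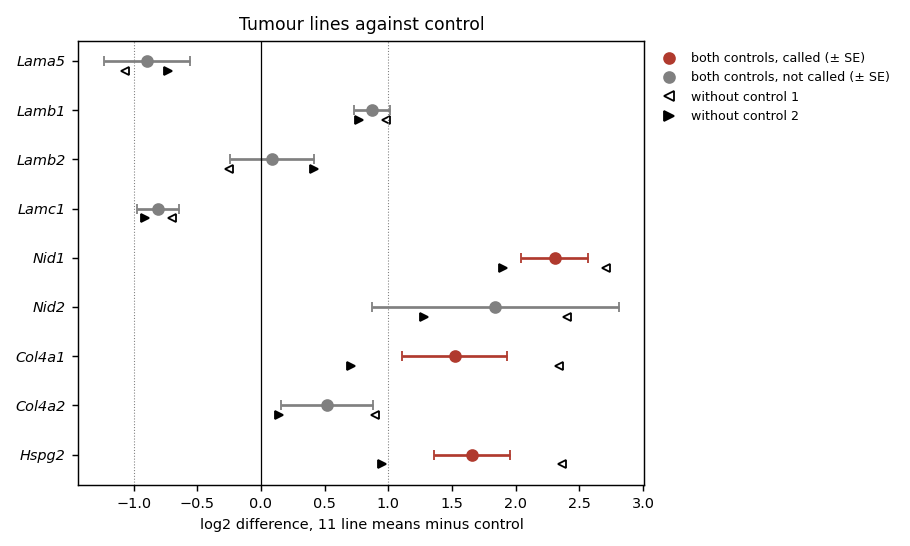
Log2 difference of the 11 line means minus the control for each gene (log2 of signal + 32; bars are SE), with the value when either control array is left out. Nid1, Col4a1 and Hspg2 lie beyond 1 with both controls, and without control 2 only Nid1 does so among these 3.

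Nidogen 1 was the gene furthest from control. The line means of Nid1 signal, a linear unit scaled to a common average on every array, had a lowest value of 164 in A2B1, a median of 249 and a highest of 462 in A2C12, against 42.2 and 10.4 on control 1 and control 2. Every line lay above both controls, and the lowest single tumour array, at 144, did too. The log2 difference was 2.31 (SE 0.26, limma adjusted p = 2.2e-06). It was 1.90 without control 2 and 2.71 without control 1. In whole cell populations such as these, fewer cells of a type and less RNA per cell cannot be told apart.

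Nidogen 2, the other nidogen, did not pass as a group difference and was spread most widely. Its line means had a lowest value of 0.646 in A2C12, a median of 319 and a highest of 592 in gammaA7, against 51.5 and 6.27 on the controls. Of the 11 lines, 8 lay above both controls, 1 below both and 2 between them. The log2 difference was 1.84 with an SE of 0.97 (limma adjusted p = 0.108). Without line A2C12 it was 2.10 and was called (adjusted p = 0.037). Its probe set carries the s suffix, which Affymetrix gives to sets whose probes may match more than 1 transcript.

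The laminin chains did not move in 1 direction, and none reached 2-fold on the scale used. Lama5, Lamb1 and Lamc1 had a limma adjusted p under 0.05, and Lamb2 did not. With an offset of 1, Lama5 (log2 -1.02) and Lamb1 (1.03) passed 2-fold, and Lamc1 (-0.93) did not. Lama5, the alpha chain of laminin in adult epithelial basement membranes, had line means of 92.0 in gammaA3 at the lowest, 213 at the median and 359 in B3 at the highest, against 365 and 470.2 on the controls. All 11 line means lay below both controls, although some single arrays, among them the first replicates of cRAF_cMYC and gammaA7 at 461 and 456, lay between them. The log2 difference was -0.90 (SE 0.34, adjusted p = 0.029), short of 2-fold. Its second probe set was too dim to test and had 21.6 to 51.9 in the lines, against 64.8 and 79.3 in the controls, again with all 11 lines below.

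Lamb1 and Lamc1, the beta 1 and gamma 1 chains that are partners in several laminins, lay on opposite sides of control. Lamb1 had line means with a lowest value of 219, a median of 264 and a highest of 305, against 137 and 114 on the controls, and its log2 difference was 0.87 (SE 0.14, adjusted p = 6.4e-05). A second Lamb1 probe set gave 0.89 (SE 0.17). Lamc1 had a lowest value of 112, a median of 153 and a highest of 189, against 315 and 267, with a log2 difference of -0.81 (SE 0.16, adjusted p = 0.00050). Every line was above both controls for Lamb1 and below both for Lamc1, and both genes missed the 2-fold limit. With each array centred on its median, Lamc1 was -0.27 (adjusted p = 0.21), Lama5 -0.36 (adjusted p = 0.33) and Lamb1 1.41, while the median of all tested probe sets was 0.49. A dim second Lamc1 probe set, not tested, read 0.764 to 14.4 in the lines and 19.3 and 21.2 in the controls. The brightest sets of Lamb1 and Lamc1 carry the f suffix, for probes that may match related transcripts.

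Lamb2, the beta 2 chain known from the kidney glomerulus and the neuromuscular junction, showed no group difference. Its line means had a lowest value of 48.8 in betaD5, a median of 141 and a highest of 255 in A2B1, against 89.0 and 160.3 on the controls. The log2 difference was 0.08 (SE 0.33, adjusted p = 0.84), and it was -0.25 without control 1. Lines lay above, below and between the controls.

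Of the type IV collagen pair, Col4a1 passed the test and Col4a2 did not. Col4a1 line means had a lowest value of 961 in A2C12, a median of 2082 and a highest of 4142 in betaD10, against 1342 and 411 on the controls. The log2 difference was 1.52 (SE 0.41, adjusted p = 0.0043), with 10 lines above both controls and A2C12 between them. The controls themselves differed 3.26-fold, and against control 1 alone the difference was 0.71 and not called (adjusted p = 0.237). Col4a2 line means had a lowest value of 427 in A2C12, a median of 1096 and a highest of 1838 in betaD10, against 923 and 534. Its log2 difference was 0.52 (SE 0.36, adjusted p = 0.221), with 8 lines above both controls and A2C12 below both.

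Hspg2, which encodes perlecan, was higher in the lines. Its line means had a lowest value of 194 in betaD5, a median of 339 and a highest of 464 in gammaD12, against 161 and 40.2 on the controls. Every line lay above both. The log2 difference was 1.66 (SE 0.30, adjusted p = 0.00017), and against control 1 alone it was 0.95, below the 2-fold limit.

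Over the 9 genes, all 11 line means lay above both controls for 3 (Nid1, Lamb1 and Hspg2) and below both for 2 (Lama5 and Lamc1), where 25.4% and 29.7% of all tested probe sets did so. The plot of all arrays shows how far the repeat arrays of a line spread around these means.

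**Figure D2:**
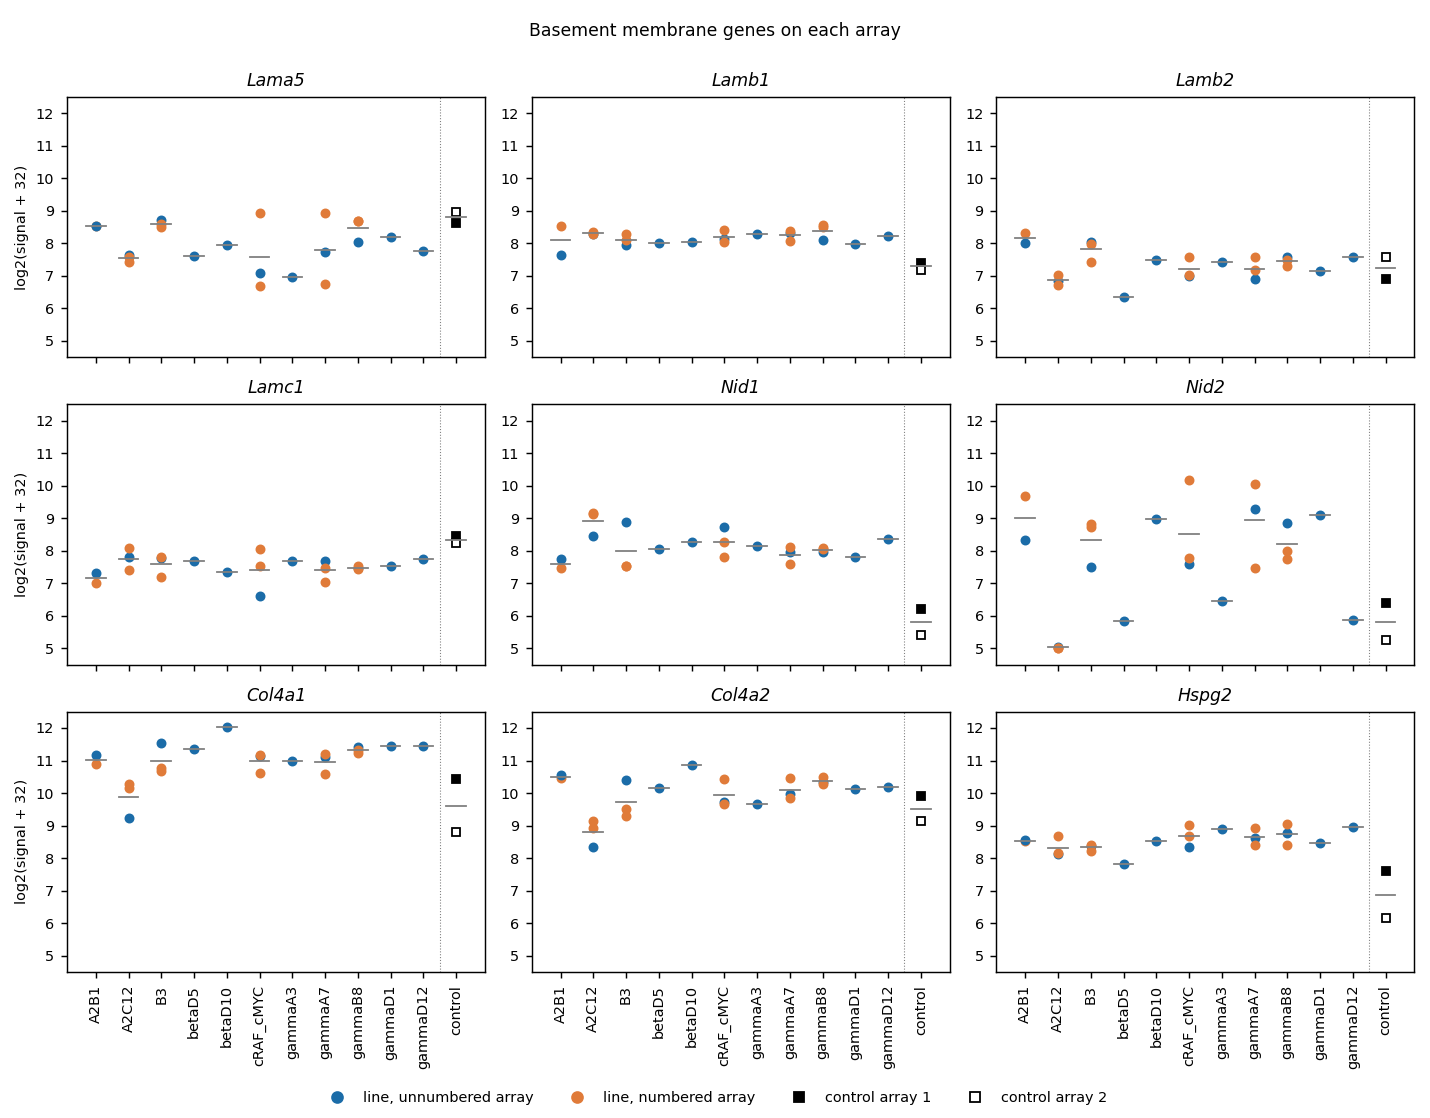
Level of each gene on every array, as log2(signal + 32), for 11 tumour lines (circles, coloured by whether the title gives the array a replicate number) and, right of the dotted line, the 2 control arrays (squares); grey bars are group means. Nid1 and Hspg2 lie above both controls on all tumour arrays, and Nid2 ranges from the floor of the scale in A2C12 to over 10 on the first replicates of cRAF_cMYC and gammaA7.

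The controls differed from each other in a way that touches these results. Control 1 was brighter than control 2 for 7 of the 9 genes, and darker for Lama5 and Lamb2, while 50.3% of all tested probe sets were brighter on control 1. The gap on the log2 scale was 1.63 for Col4a1, 1.42 for Hspg2, 1.13 for Nid2 and 0.81 for Nid1. Of 12 macrophage markers 10 were brighter on control 1, with a median ratio of 1.79, and of 12 fibroblast markers 8 were, with a median ratio of 1.80. The fibroblast markers summed to 7143 to 34380 in the lines, against 6195 on control 1 and 3205 on control 2. Collagens made up most of this sum in the lines and on control 1, but not on control 2, where Dcn alone had 1406. Of 10 tested markers 3 were higher in the lines, 2 lower and 5 not called, beside 16.5% higher and 21.4% lower over all tested probe sets. The collagen I chain Col1a1, a fibroblast product, had 4705 to 13437 in the lines, against 1147 and 164, whereas Pdgfra, a receptor of fibroblasts, had 48.7 to 488, against 697 and 353. The summed signal of 7 smooth muscle and pericyte markers was 3328 to 7780 in the lines, against 2004 and 1004. Acta2, smooth muscle actin, made up 2134 to 6427 of it, against 1002 and 310.4. Of 4 tested markers 2 were higher, 1 lower and 1 not called. Besides Acta2, Cnn1 was higher, at 46.5 to 551 in the lines, against 13.9 and 23.4, and entered the test only through tumour arrays. The lower one, Mcam, entered only through the controls, so its call has no weight. Myh11 and Des, chosen after their values were seen, were below both controls in all 11 lines.

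Endothelial cells, which also make basement membrane, were judged by 11 markers, 10 of them brighter on control 2. Their summed signal was 946 to 3889 in the lines, of which Eng made up 849 to 3737, against 1631 and 3887. The defining markers Vwf, Cldn5 and Cdh5 had highest line means of 5.22, 7.40 and 11.7, against at least 104 on either control. Macrophage markers summed to 715 to 2093 in the lines, against 45959 and 27151, and 8 type II cell markers to 96.1 to 161, against 1589 and 31018. The part of these cell types in the differences was not tested.

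Set against control line by line, in a limma fit of 12 group means to all 24 arrays, the 9 genes gave 99 contrasts. Of these 41 were called higher (41.4%) and 1 lower (1.0%), where 16.4% and 20.8% of the contrasts of all tested probe sets were. Nid1 and Nid2 gave 11 and 7 of the higher calls. Both entered the test only through tumour arrays, so their calls carry no weight beside these shares. The 11 contrasts of a gene share the same 2 control arrays. Nid1 was higher in all 11 lines, by 1.80 to 3.10 on the log2 scale. Col4a1 was higher in 10 lines, all but A2C12, and Hspg2 in 10, all but betaD5. Nid2 was higher in 7, and the 4 lines not called were A2C12, betaD5, gammaA3 and gammaD12. Lamb1 reached 2-fold in A2C12 and gammaB8, and Col4a2 in betaD10. The other tested Lamb1 probe set was called higher in gammaA3, gammaB8 and gammaD12, but not in A2C12. The lower call was Lamc1 in A2B1, at -1.17. Lama5 and Lamb2 were called in no line. Without control 2, which leaves 1 control array, fewer contrasts were called, and the share over all probe sets was not counted. Without the numbered arrays of cRAF_cMYC and gammaA7 there were 40 higher and 8 lower, beside 16.3% and 21% of all contrasts. Of those 8, Lama5 gave 6 (A2C12, betaD5, cRAF_cMYC, gammaA3, gammaA7 and gammaD12) and Lamc1 gave 2, and Col4a1 was then higher in 8 lines.

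**Figure D3:**
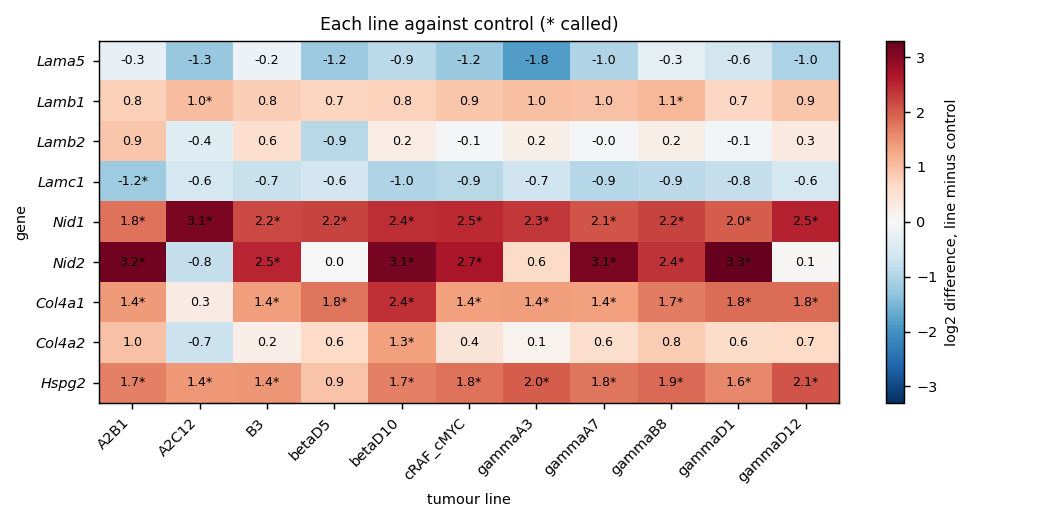
Log2 difference of each tumour line (columns) minus the mean of the 2 control arrays for the 9 genes (rows); red is higher in the line, blue lower, and a star marks a call at adjusted p under 0.05 and 2-fold. The Nid1 row is starred throughout, and the Nid2 row runs from -0.79 in A2C12 to 3.29 in gammaD1.

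Whether the lines differed from each other was tested with limma's moderated F-test over the 11 groups. Nid2 was called at adjusted p = 0.025, as were 3.42% of all tested probe sets, and no other of the 9 genes passed in this fit. At an unadjusted p under 0.05 there were 4, as were 21.4% of all tested probe sets. Lamb2 had an adjusted p of 0.056, Col4a2 of 0.066 and Col4a1 of 0.184. Lamb1 and Lamc1, the narrowest among the lines, had 0.941 and 0.929. A p above the limit does not show that lines were alike.

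Nid2 signal, as the mean of a line, ranged widely. It was 0.646 in A2C12, 25.0 in betaD5, 26.6 in gammaD12 and 56.2 in gammaA3. In the other 7 lines it was 279 in gammaB8, 319 in B3, 467 in betaD10, 493 in cRAF_cMYC, 521 in gammaD1, 538 in A2B1 and 592 in gammaA7. No line mean lay between 56.2 and 279, but single arrays did. Among them were arrays of gammaA7 at 144, B3 at 148, cRAF_cMYC at 162 and gammaB8 at 182. Neighbouring line means within each stretch differed by less than the SD of arrays within lines, 0.97 on the log2 scale. The widest range within a line was 2.60, in gammaA7. In A2C12 the 3 arrays read 0.456, 0.482 and 1.00, whereas betaD5, gammaA3 and gammaD12 have 1 array each.

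The repeat arrays of the high lines did not agree on the level of Nid2. In cRAF_cMYC it was 1128 on replicate 1, 189 on replicate 2 and 162 on the unnumbered array. In gammaA7 it was 1036 on replicate 1, 144 on replicate 2 and 596 on the unnumbered array. The first replicates of these lines were thus alike and high, and the second alike and lower. Without the numbered arrays of both lines Nid2 was again called, and Lama5 then passed as well (adjusted p = 0.016). Without line A2C12 no gene of the 9 was called, and Nid2 had an adjusted p of 0.576, with 0.209% of all tested probe sets called. Leaving out 1 array of A2C12 brought the adjusted p of Nid2 to between 0.083 and 0.108.

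Genes most like Nid2 across the 11 line means, of 5816 others, were Dcn, which encodes the small proteoglycan decorin (r = 0.94), Synpo, which encodes the actin-associated protein synaptopodin (r = 0.91), and Gli2, a transcription factor of hedgehog signalling (r = 0.91). Dcn had 236 in A2C12, 319 in gammaD12, 353 in betaD5 and 380 in gammaA3, against 1340 to 5374 in the other 7 lines. These r values describe 11 points that share arrays and scaling, and the genes were picked for them. On the unnumbered arrays alone r was 0.66 for Dcn, 0.92 for Synpo and 0.89 for Gli2. Dcn is also among the 12 fibroblast markers, whose summed signal had r = 0.69 with Nid2 over the lines and was lowest in A2C12. Sums of type I, endothelial, and smooth muscle and pericyte markers were lowest there too, with r of 0.04, 0.30 and 0.26. Those of type II, macrophage and epithelial markers were lowest in other lines. The sum of 5 mesothelial markers had r = 0.67 and ran from 503 in A2C12 to 9675 in gammaB8, against 4436 and 3525 in the controls. Most of the control sums was Krt19, at 3570 and 2230, a keratin also counted among the epithelial markers. The part of the fibroblast or mesothelial list in the spread of Nid2 was not tested.

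The 9 genes did not vary as a block across lines. Of 36 pairs, 20 had a Pearson r above 0 over the 11 line means, and the median was 0.10. Col4a1 and Col4a2, whose promoters overlap, had the highest r, 0.90 (Spearman 0.75), with A2C12 lowest and betaD10 highest for both genes. Without these 2 lines r was 0.44. Among repeat arrays, as deviations from the mean of their line over 17 arrays, r was 0.83, and 0.91 over the 11 arrays left without cRAF_cMYC and gammaA7. On the unnumbered arrays alone it was 0.95.

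Nid1 and Nid2 had a negative r. Nid1 was highest and Nid2 lowest in A2C12, and Nid1 was lowest in A2B1, where Nid2 was high. Their r was -0.70 over the line means, -0.42 without A2C12 and A2B1, -0.39 on the unnumbered arrays, and -0.68 among repeat arrays with or without cRAF_cMYC and gammaA7. The lowest r of all pairs was -0.85, between Nid2 and Lamc1, but it was -0.34 on the unnumbered arrays and 0.46 among repeat arrays, and there -0.36 without cRAF_cMYC and gammaA7. Nid1 and Col4a1 had r = -0.47 over line means, -0.12 on the unnumbered arrays and 0.90 among repeat arrays, or 0.91 without those 2 lines. Points share an array's scaling in all of these.

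**Figure D4:**
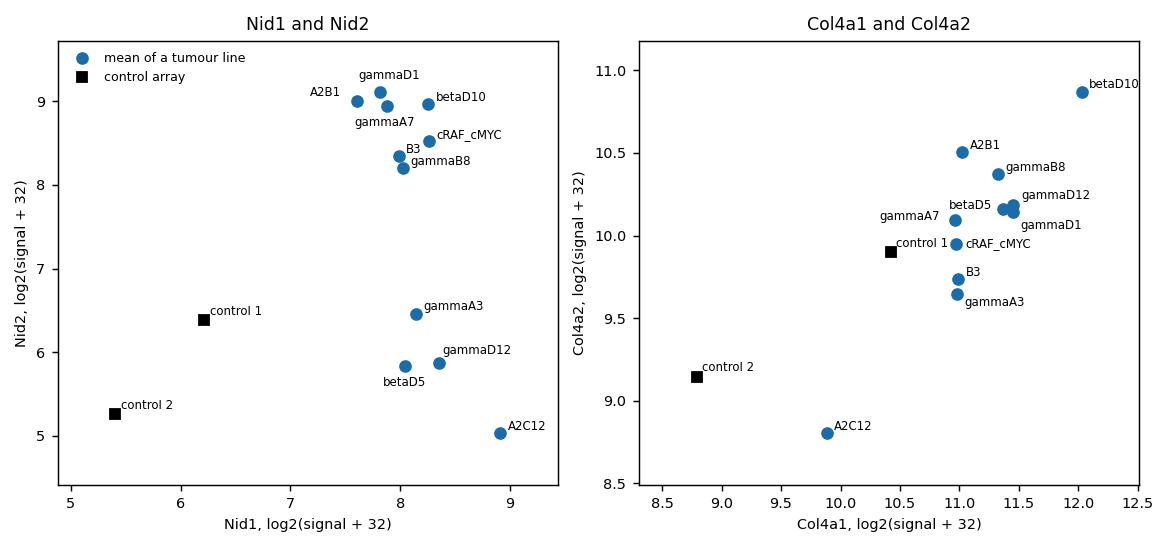
Levels of Nid1 against Nid2 (left) and of Col4a1 against Col4a2 (right), as log2(signal + 32); each circle is the mean of a tumour line and each square a control array. A2C12 is highest in Nid1 and lowest in Nid2, and lies at the low end of both collagen genes with betaD10 at the high end.

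Titles give some arrays of a line a replicate number and others none, and in 6 lines with both kinds the 9 genes were compared between them. None was called (limma, 0 also at an unadjusted p under 0.05), where 0.261% of all tested probe sets were. The largest difference among the 9, unnumbered minus numbered, was -0.42 for Nid2 (SE 0.33). Over all tested probe sets this difference was partly shared by the lines, with r above 0 in 14 and above 0.1 in 12 of 15 line pairs, up to 0.54. Without cRAF_cMYC and gammaA7 none of the 9 genes and 0 of all probe sets were called by limma, and 0 of the 9 had an unadjusted p under 0.05.

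Other genes of the pathway were taken by role. Their counts stand beside 16.5% higher and 21.4% lower over all tested probe sets, and with few genes per role no gap was tested. Of 3 tested laminin and netrin genes outside the 9, Lama4 and Ntn1 were not called. Lamb3, a chain of the epithelial laminin 332, entered the test only through the controls, so its call has no weight. It had line means of 5.94 to 19.2, against 306 and 124 in the controls. Lama3, another chain of that trimer, was too dim to test, at 6.28 to 21.5 in the lines and 90.1 and 81.4 in the controls. Lama3 was chosen after its values were seen. Of 3 tested collagens, Col4a5, a further type IV chain, was higher at 114 to 548 in the lines, against 67.3 and 111 (log2 1.28, SE 0.37), and 2 were not called.

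Among 8 tested glycoproteins and proteoglycans, 2 were higher, 2 lower and 4 not called. Fbln2, encoding fibulin 2, which binds nidogen, had 2868 to 4610 in the lines, against 623 and 77.1 (log2 3.80, SE 0.40). Sparc, a collagen-binding matrix protein, had 1839 to 4384, against 1046 and 211 (log2 2.51, SE 0.38). Agrn, the heparan sulphate proteoglycan agrin, was lower at 83.0 to 143, against 280 and 337 (log2 -1.26), and Npnt, the integrin ligand nephronectin, fell by 1.66 on the log2 scale.

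Receptors gave 1 higher, 2 lower and 9 not called of 12, and 1 of the lower, Itga7, entered the test only through the controls. Ddr2, a receptor for fibrillar collagen, was higher at 356 to 706, against 218 and 118 (log2 1.58, SE 0.24). Itgb4, the integrin chain of hemidesmosomes, was lower, with no line above 67.0, against 196 and 386 (log2 -2.12, SE 0.28). Itga7, a laminin-binding integrin chain known from muscle, had 8.87 to 45.0, against 137 and 295.

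Collagen folding genes numbered 2 higher, 1 lower and 6 not called of 9. Serpinh1, the collagen chaperone of the endoplasmic reticulum, had 3393 to 5773 in the lines, against 1404 and 773 (log2 2.07, SE 0.21). P4ha1, a catalytic subunit of prolyl 4-hydroxylase, was higher by 1.41 on the log2 scale, and P4hb, its partner subunit, fell by 1.17.

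Proteolysis genes counted 5 higher, 1 lower and 3 not called of 9, with a median log2 difference of 1.01 beside -0.05 over all tested probe sets. Those furthest above control were the metalloproteinase inhibitors Timp3 (log2 2.78), Timp2 (2.28) and Timp1 (2.19). Timp3, which binds to the matrix, had 3428 to 5573 in the lines, against 736 and 463. Mmp10, a stromelysin, had 2.76 to 145 in the lines, against 16.2 and 0.624, and entered the test only through tumour arrays. Mmp9, a gelatinase that degrades type IV collagen and the gene called lower, had 3.80 to 131 in the lines, against 4.03 on control 1 and 248 on control 2, and was picked out after its values were seen. The plot by role shows the other genes of each group.

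**Figure D5:**
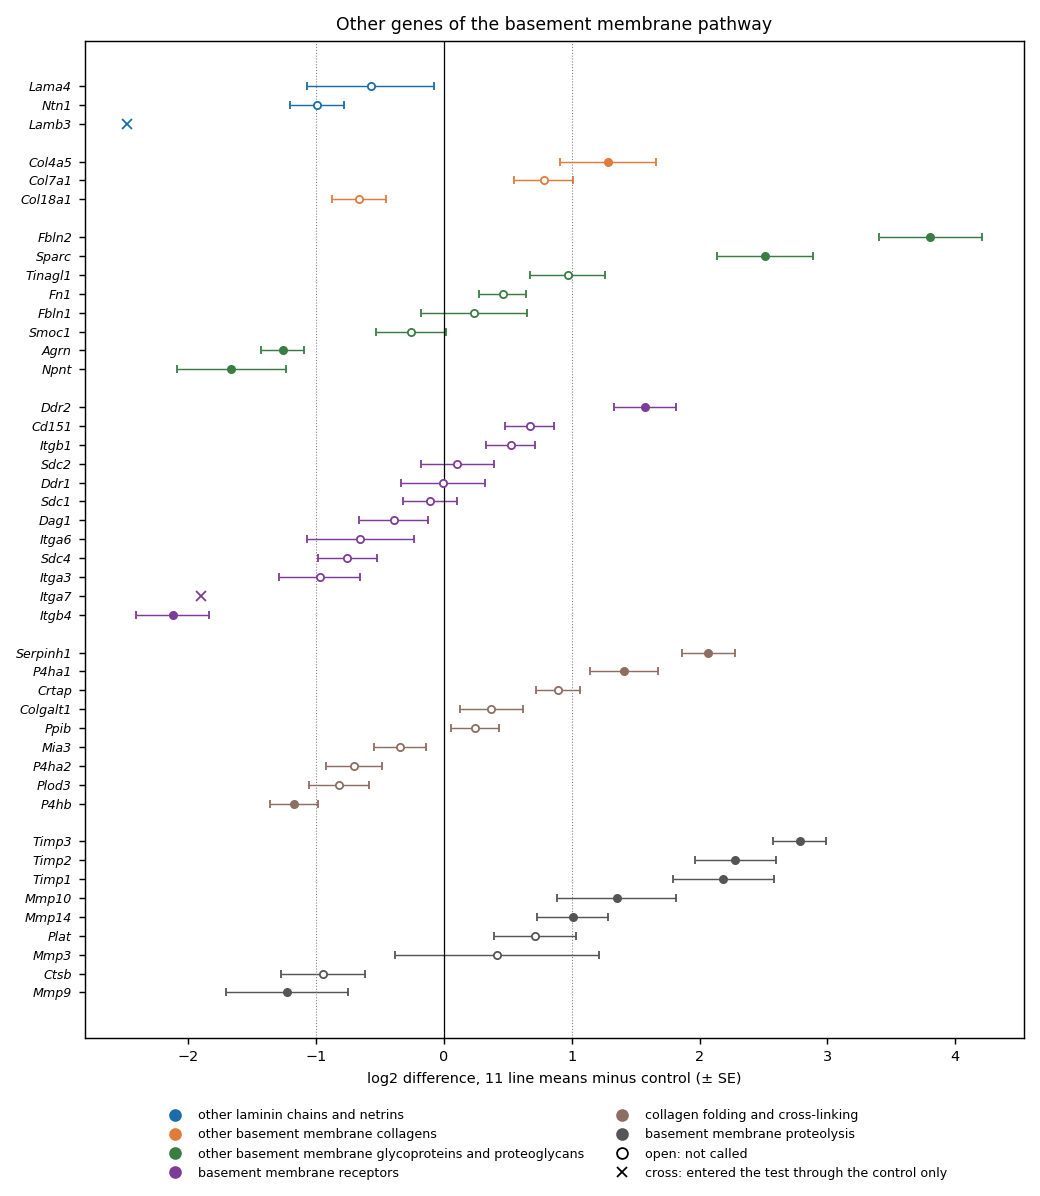
Log2 difference of the 11 line means minus the control (bars are SE) for the other tested genes of the pathway, grouped by role from top to bottom; filled points were called, open points were not, and crosses are genes that entered the test only through the control arrays. Fbln2 is highest at 3.80, and Itgb4 is lowest at -2.12 among the genes drawn as points.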

How the data were processed

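The authors deposited 1 linear intensity signal per probe set and array, made with GCOS (version not given) per the submitters' processing notes. With 2% of probe sets trimmed from either end, array means were 250.1 to 250.2, so the deposited values had been scaled to a common mean and every difference is relative to an array's other RNAs. How background was corrected is not given in the sources used, detection calls were not used, and precision is limited by the few arrays.

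After 66 control probe sets were left out, log2(signal + 32) was taken, which compresses differences among low signals. Arrays of a line were averaged and the 11 line means fitted against 2 controls in limma 3.58.1 (R 4.3.3). A second fit of 12 group means to 24 arrays gave the F-test and the contrast of each line. Both were tested on simulated data. Adjusted p-values are limma's, over 7670 probe sets. No label says that repeat arrays are separate cultures or the controls separate animals, and the spread behind each p-value may therefore be technical. Same-numbered arrays of different lines were compared as deviations, and 1 of 10 line pairs correlated above 0.1, so the numbers were not taken as pairs. A gene above the array median on both controls and on fewer than 2 tumour arrays entered the test only through the controls, and its call carries no weight. Nid1 and Nid2 entered only through tumour arrays.

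The 9 genes and the lists were chosen with earlier results of these data known. Except Mmp9, called genes named from a list were among its 4 with the largest difference. Not all such genes, nor every list, were named. For a gene past the F-test, the 3 genes most like it over lines were named. A symbol came from the platform annotation, which gave 1 symbol to 10833 probe sets, several to 396 and none to 1193. Alternatives changed the scaling, offset, filter, fold limit and arrays used.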

Additional observations from a re-analysis of the deposited data

Results flagged for a closer look

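Nid2 was singled out because its level differed among the tumour lines by a test of that difference, the F-test over the 11 lines (limma adjusted p = 0.0247). The lines spanned 0.646 in A2C12 to 592 in gammaA7, against 51.5 and 6.27 on the 2 control arrays. In the 6 lines with more than 1 array, the SD of its log2 level within lines was 0.97, against 1.54 between the 11 lines.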

How the results depend on the processing

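The log2 difference of Nid1 was 1.47 to 3.47 over the 45 alternatives of the comparison with control. These alternatives share lines and controls. Nid1 entered the test only through tumour arrays, so its calls carry no separate weight. The count of 3 called became 6 with each array centred on its median, 5 with an offset of 1, 5 with a floor of 32 and 6 with no fold limit, where 43.6%, 44.6%, 43.6% and 64.5% of all tested probe sets were called in either direction, beside 37.8% before. The last 3 settings added Lamb1 as higher and Lama5 as lower, and the last also Lamc1 as lower. Leaving out a line or an array gave at most 4, without line A2C12 (38.1% of all tested probe sets). Without control 2, of the 3 genes only Nid1 kept a 2-fold difference. Centring, which moved the median of all tested probe sets to 0.49, added Nid2, Lamb1 and Col4a2; quantile normalization moved it to 0.18 and added Lamb1. Lamb2 was -0.25 without control 1 and 0.42 without control 2. The count of 1 by the F-test (3.42% of all probe sets) became 0 with an offset of 100 (4.07%) and 0 without line A2C12 (0.209%), 2 with a floor of 32 (3.83%), 2 with the stricter filter (4.30%), 2 with the numbered arrays of 5 lines (20.65%) and 4 with the 6 lines of more than 1 array (12.8%). Leaving out single arrays gave 0 to 2, where 1.08% to 10.3% of all tested probe sets were called. With the replicate number as a block it was 2 (6.06%), Nid2 and Lamb2, and without the numbered arrays of cRAF_cMYC and gammaA7, chosen after seeing the data, 2 (3.65%). Calls by line were 42 in all, 21 without control 2 and 50 without control 1. With either control left out, 1 control array remains, and the share of calls by line over all tested probe sets was not counted. These counts by line therefore cannot show whether the change is particular to the 9 genes. The causes were not tested. The count between unnumbered and numbered arrays was 0 in these 9 alternatives, and r between Col4a1 and Col4a2 was 0.89 to 0.95 in 11. With 2 controls and no detection calls, low signals such as Nid2 in A2C12 have no stated background.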
